A study of Mus musculus with 12 samples.

Results

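Open chromatin was described here at 5 chemokine receptor genes of the mouse, Ccr1, Ccr2, Cx3cr1, Cxcr2 and Cxcr4. Members were the open chromatin regions of the ATAC-seq count table that overlapped a gene body of the GENCODE M21 basic annotation or the 20 kb on either side of it. This gave 78 of the 121336 regions of the table, namely 6 at Ccr1, 9 at Ccr2, 38 at Cx3cr1, 16 at Cxcr2 and 9 at Cxcr4. Regions were assigned to the genes by position alone, but the 5 genes were chosen with earlier results of these data known. ATAC-seq (OmniATAC protocol) marks accessible DNA by the insertion of a transposase, and the number of reads in a region grows with its accessibility.

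The cells were sorted from bone marrow of young adult littermate mice on a C57BL/6 background after pre-enrichment of c-Kit+ cells. The LSK fraction (Lin- Sca-1+ c-Kit+) holds stem cells and early progenitors, whereas the GMP fraction (Lin- Sca-1- c-Kit+ CD16/32+) holds granulocyte-monocyte progenitors. Mice were wild type (WT) or UREd/d, which lack both copies of an upstream regulatory element of the PU.1 gene Spi1 (called URE). PU.1 is a transcription factor of myeloid and lymphoid cells. Both genotypes were sorted for both fractions, which gave 4 groups (WT-LSK, WT-GMP, URE-LSK, URE-GMP) of 3 libraries each, which the study's methods assign to 3 mice per genotype and cell type. The deletion is present in every cell of the mouse and not only in the sorted ones. Total counts per library lay between 23072701 and 62204826, and 3 counts corresponded to between 0.0520 and 0.126 CPM (counts scaled to the library total). The accessibility of marker genes followed the sort labels. Of the 5 GMP marker genes with a region, 5 had a higher summed accessibility in WT-GMP than in WT-LSK, and of 6 stem cell markers 5 had a lower one. By the test described below, 55.2% of all gene windows differed between WT-GMP and WT-LSK in either direction. The LSK and GMP gates hold mixed progenitors, and a smaller share of accessible cells cannot be told apart from a lower accessibility per cell.

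Chemokine receptors are G protein-coupled receptors that steer leukocyte migration along gradients of chemokines. CXCR4 binds CXCL12 and retains stem and progenitor cells and immature neutrophils in the bone marrow, whereas CXCR2 binds the CXCL1 family and draws neutrophils out of it. CCR2 binds CCL2 and CCL7 and drives the exit of monocytes from the marrow. CX3CR1 binds CX3CL1 and marks monocytes, macrophages and dendritic cells, and CCR1 binds several CC chemokines on monocytes and neutrophils.

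Where the member regions lay bears on what can be said about them. One long GENCODE transcript extends the Cx3cr1 body over 168264 bp (chr9:119901616-120069879, minus strand, GRCm38) so that the body and its flanks take in Wdr48, Gorasp1, Ttc21a, Csrnp1 and Xirp1. With the RefSeq body of 19614 bp (chr9:120048683-120068296) and the same 20 kb flanks, 8 of the 38 regions remained, and 48 of the 78 regions in all. This narrower set was chosen after the data were seen and is given beside the full one. Ccr1 (chr9:123962124-123968692, minus strand) had no region within 500 bp of its start site. Ccr2 lies at chr9:124101950-124113557 on the plus strand. The region set of Cxcr2 (chr1:74153989-74161246, plus strand) held part of Rufy4, and the window of Ccr1 reached into that of Ccr1l1. Cxcr4 (chr1:128588199-128592293, minus strand) had no other protein-coding gene in its window.

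Short DNA motifs were searched on both strands in the central 300 bases of each region. The PU.1 motif GAGGAAGT was found in 5 of the 78 regions (6.41%, against 8.70% of all 121336 regions) and the CEBP motif TTGCNNAA in 16 (20.5%, against 16.4%). The RUNX motif AACCACA was found in 10 (12.8%, against 14.4%) and the motif CCGGAAGT of other ETS factors in 1 (1.28%, against 1.22%). The PU.1 and ETS motifs share the ending GGAAGT. Of the 5 regions with the PU.1 motif, 3 were less accessible in URE-LSK than in WT-LSK by the test described below, and 2 of these also in URE-GMP. The remaining 2, in a Cxcr2 intron and in a Ttc21a intron within the long Cx3cr1 body, were called in neither comparison. Over the whole table, 6144 of the 10553 regions with the PU.1 motif were called lower in LSK and 5555 in GMP. The sequences below are shown because they are the intronic and intergenic PU.1 motif sites within the 48 regions, 2 in regions that lost accessibility and 1, at Cxcr2, in a region that was not called. Capitals mark the motif, sequences read 5′ to 3′ on the strand of the motif, and coordinates are GRCm38.
Cxcr4, 5.02 kb upstream of the start, chr1:128597323-128597410, plus strand: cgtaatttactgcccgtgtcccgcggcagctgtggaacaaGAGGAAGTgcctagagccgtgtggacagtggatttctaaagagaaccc
Cx3cr1 intron, 9.15 kb downstream, chr9:120058869-120058956, minus strand: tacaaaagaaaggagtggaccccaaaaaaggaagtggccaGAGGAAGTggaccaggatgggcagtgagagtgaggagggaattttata
Cxcr2 intron, 1.49 kb downstream, chr1:74155605-74155692, minus strand: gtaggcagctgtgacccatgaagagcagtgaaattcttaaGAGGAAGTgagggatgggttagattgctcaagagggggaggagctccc

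Of the 15 regions more accessible in URE-GMP than in WT-GMP, 6 held the CEBP motif and 0 the PU.1 motif. Of the 15 less accessible ones, 0 held the CEBP motif and 2 the PU.1 motif. Over the whole table, the CEBP motif was in 28.6% of the regions called higher and 13.6% of those called lower in GMP, and the PU.1 motif in 2.43% and 19.0%. The following sites lie in regions near Cxcr4, Cxcr2 and Ccr1 that were more accessible in URE-GMP, and capitals mark the CEBP motif.
Cxcr4, 4.99 kb downstream of the start, chr1:128586962-128587049, plus strand: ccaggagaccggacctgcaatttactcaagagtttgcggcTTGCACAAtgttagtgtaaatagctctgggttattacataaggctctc
Cxcr2, 4.26 kb upstream, chr1:74149375-74149462, minus strand: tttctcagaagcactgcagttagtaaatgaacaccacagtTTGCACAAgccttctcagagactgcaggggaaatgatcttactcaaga
Ccr1 intron, 3.53 kb downstream, chr9:123964951-123965038, plus strand: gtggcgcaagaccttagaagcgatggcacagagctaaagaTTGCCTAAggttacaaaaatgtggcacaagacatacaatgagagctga

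Next, the effect of the deletion on single regions was assessed. Calls required an adjusted p under 0.05 (edgeR quasi-likelihood test, adjusted over all regions) and a log2 fold change beyond 1 in either direction. In LSK, 31 of the 78 regions were called, 11 with higher accessibility in URE (14.1%, against a background of 13.6% of all regions) and 20 with lower accessibility (25.6%, against 23.9%). In GMP, 30 were called, 15 higher (19.2%, against 15.6%) and 15 lower (19.2%, against 24.1%). These shares were near those of the whole table. The split by direction depended on scaling. With loess offsets it was 19 higher and 19 lower in LSK and 19 higher and 10 lower in GMP, and with offsets for GC content it was 17 and 19, and 21 and 11. The split of the whole table moved as well. Of all calls in LSK, 63.8% were lower in the main fit, 47.0% with loess and 47.9% with GC content offsets. In GMP these shares were 60.6%, 45.0% and 47.1%. With the RefSeq body of Cx3cr1, 6 of 48 regions were higher in LSK (12.5%, against 13.6%) and 17 lower (35.4%, against 23.9%). In GMP, 8 of the 48 were higher (16.7%, against 15.6%) and 14 lower (29.2%, against 24.1%). The share lower in LSK was thus above that of the whole table in this narrower set. The median log2 difference of the 78 regions was 0.13 in LSK and 0.36 in GMP, beside 0.14 and 0.06 for all regions.

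The same regions were also followed across the step from LSK to GMP. In WT, 31 of the 78 regions were more accessible in GMP (39.7%, against a background of 21%) and 5 less (6.41%, against 16.8%). In URE, 39 were more accessible in GMP (50.0%, against 27.6%) and 8 less (10.3%, against 21.6%). With the RefSeq body of Cx3cr1, 25 of 48 regions opened in WT (52.1%, against 21%) and 3 closed (6.25%, against 16.8%).

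The genotype difference itself differed between the cell types at 15 regions, by the interaction test (genotype difference in GMP minus that in LSK). In 14 it was more positive in GMP (17.9%, against a background of 8.96%) and in 1 more negative (1.28%, against 5.03%). No region was called in opposite directions in LSK and GMP.

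**Figure D1:**
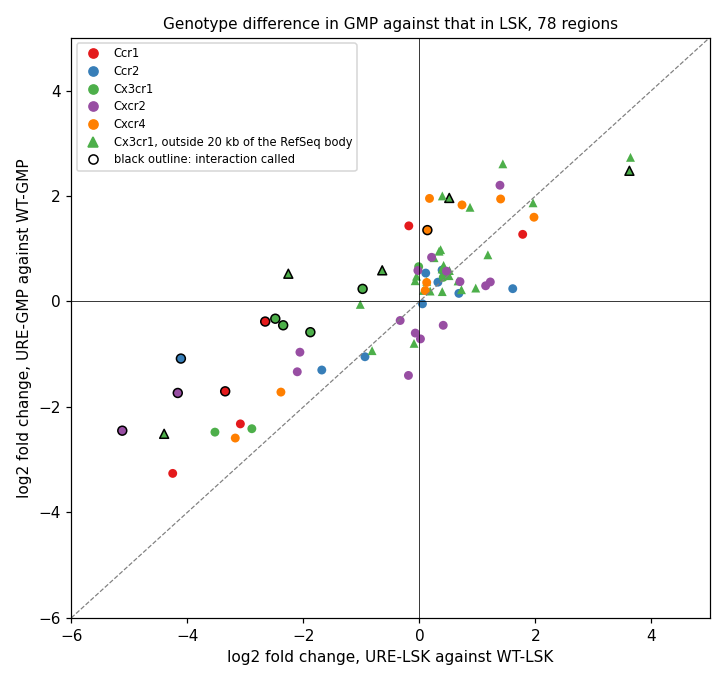
Each point is 1 of the 78 regions, with the log2 fold change of URE against WT in LSK on the horizontal axis and in GMP on the vertical axis, coloured by gene. The dashed line marks equal differences, black outlines mark the 15 regions with a called interaction, and 14 of these lie above the line.

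Accessibility was then summed over each gene body and its 20 kb flanks, which gave 1 value per gene and library. Windows were called at an adjusted p under 0.05 without a fold threshold. In LSK, 2 of the 5 gene windows were called, Ccr1 and Ccr2, both lower in URE (background 61.3% of 18435 windows in either direction). In GMP, 3 were called, Ccr2 lower and Cx3cr1 and Cxcr4 higher in URE (background 62.6%). All 5 windows were more accessible in GMP than in LSK, in WT (background 55.2%) and in URE (background 61.1%). The interaction was called for 1 window, Ccr1 (background 17.9%). With a replicate block in the model, 4 windows were called in LSK and 3 for the interaction, and without single libraries between 1 and 3 for the interaction. Without WT-GMP replicate 1, for example, the interaction of Cxcr4 was 0.57 (adjusted p = 9.96e-04) and that of Cx3cr1 0.30 (adjusted p = 0.00864). The median log2 difference of all windows was 0.17 in LSK and 0.15 in GMP and moved to 0.0221 and 0.0150 with GC content offsets, so the values below are to be read against these shifts.

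Ccr1 showed the widest gap between cell types. Its summed accessibility was 17.2, 16.2 and 16.4 CPM in the WT-LSK libraries and 1.93, 3.07 and 3.23 CPM in URE-LSK. In GMP it was 38.2, 32.5 and 24.0 CPM in WT and 26.0, 29.3 and 23.3 CPM in URE. The LSK groups did not overlap, whereas the GMP groups did. The log2 difference was -2.60 (SE 0.19, adjusted p = 3.31e-08) in LSK and -0.26 (SE 0.16, adjusted p = 0.162) in GMP, where it was -0.42 (adjusted p = 0.0142) without WT-GMP replicate 3. Its interaction was 2.33 (SE 0.25, adjusted p = 1.42e-05). The regions within 5 kb of the gene body did not follow this sum. With flanks of 5 kb only 2 regions remained, and the log2 difference came to 0.93 for LSK (adjusted p = 0.0782) and 1.30 for GMP (adjusted p = 9.40e-04), opposite in direction.

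The single regions of Ccr1 moved in both directions. The intron region 3.53 kb downstream of the start (chr9:123964796-123965162) gained accessibility. It held 0.157, 0.163 and 0.221 CPM in WT-LSK and 0.4997, 0.195 and 1.18 CPM in URE-LSK. In GMP the values were 5.94, 5.85 and 3.37 CPM in WT and 11.3, 13.3 and 11.9 CPM in URE. URE-GMP lay above all other libraries. URE differed from WT by a log2 difference of 1.27 (SE 0.32, adjusted p = 0.00290) in GMP and 1.78 (SE 0.53, adjusted p = 0.00981) in LSK, where the groups overlapped and the value without URE-LSK replicate 3 was 0.93 (adjusted p = 0.122). The 4 regions from 14.8 to 26.3 kb downstream, which lie between genes, were called lower in URE-LSK, 3 of them with log2 differences from -3.35 to -2.66 and the other at counts near 0. These 3 include the region 18.9 kb downstream, which also held few counts in URE-LSK (1, 4 and 2).

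In the best covered of these 4 in LSK, 17.1 kb downstream (chr9:123951170-123951562), the 3 WT-LSK libraries held 10.8, 9.14 and 11.5 CPM and the 3 URE-LSK libraries 0.595, 1.62 and 0.919 CPM. WT-GMP held 8.66, 7.81 and 7.33 CPM and URE-GMP 2.26, 3.14 and 1.84 CPM. Neither pair of groups overlapped. On the log2 scale the difference was -3.35 (SE 0.29, adjusted p = 1.14e-07) in LSK and -1.70 (SE 0.26, adjusted p = 4.62e-05) in GMP, and the loss was smaller in GMP (interaction 1.64, SE 0.38, adjusted p = 0.00842).

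The region 26.3 kb downstream of Ccr1 (chr9:123942050-123942372) behaved differently in the 2 cell types. It held 4.99, 5.997 and 3.40 CPM in WT-LSK and 0.547, 0.949 and 0.769 CPM in URE-LSK. The GMP libraries held 14.2, 9.15 and 7.74 CPM in WT and 8.55, 7.95 and 7.22 CPM in URE. URE-LSK stood apart from WT-LSK (log2 difference -2.66, SE 0.29, adjusted p = 1.16e-06), whereas the GMP groups overlapped (-0.38, SE 0.24, adjusted p = 0.185). The interaction test gave 2.28 (SE 0.38, adjusted p = 8.48e-04). In the region 14.8 kb downstream (chr9:123953599-123953881), the URE-LSK libraries held 1, 0 and 1 counts. There the WT-LSK sum of 39 counts against 2 was a 21.6-fold difference after scaling (exact 95% interval 5.60 to 185, counting error only). In GMP this region held 3.81, 4.03 and 3.02 CPM in WT and 0.194, 0.798 and 0.0727 CPM in URE, a log2 difference of -3.26 (SE 0.53, adjusted p = 6.72e-05), which was the lowest fitted GMP value of the 78 regions.

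Ccr2 was lower in URE in both cell types. Its window held 25.7, 25.1 and 24.7 CPM in WT-LSK and 17.9, 18.6 and 20.3 CPM in URE-LSK. Values in GMP were 33.9, 38.8 and 42.2 CPM in WT and 28.8, 29.7 and 31.01 CPM in URE. The groups did not overlap in either cell type, and the log2 difference was -0.41 in LSK (SE 0.09, adjusted p = 0.00123) compared with -0.37 in GMP (SE 0.09, adjusted p = 0.00202). With GC content offsets they were -0.15 (adjusted p = 0.161) and -0.09 (adjusted p = 0.391), so these calls depended on the scaling.

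Called regions of Ccr2 itself lay downstream of its start. The region at the start itself (chr9:124101778-124102059) held 0.262, 0.326 and 0.181 CPM in WT-LSK, against 0.167, 0.195 and 0.385 CPM in URE-LSK. It rose to 4.81, 3.99 and 3.76 CPM in WT-GMP, against 3.62, 4.49 and 3.998 CPM in URE-GMP. The genotypes overlapped in both cell types (log2 differences 0.05, SE 0.39, and -0.04, SE 0.23), while the step from LSK to GMP was 4.07 in WT (SE 0.31, adjusted p = 1.16e-07). In the most accessible region of the window, 1.04 kb downstream (chr9:124103225-124103652), URE was lower by log2 differences of -0.94 (SE 0.19) in LSK and -1.05 (SE 0.18, adjusted p = 1.08e-04) in GMP. Without WT-GMP replicate 3 or without URE-GMP replicate 1, the GMP value was -0.90 or -0.94, inside the fold threshold.

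The region 6.99 kb downstream of the Ccr2 start (chr9:124112615-124112921), which overlaps an exon with untranslated sequence, had the lowest interaction p of the 78. It held 7.35, 7.63 and 8.04 CPM in WT-LSK and 0.286, 0.530 and 0.513 CPM in URE-LSK. GMP libraries had 8.66, 10.5 and 11.8 CPM in WT and 5.12, 4.91 and 4.60 CPM in URE. URE-LSK libraries were far below all others, and URE-GMP lay between. The log2 difference was -4.11 (SE 0.23, adjusted p = 3.22e-09) in LSK and -1.08 (SE 0.18, adjusted p = 1.01e-04) in GMP, which was -0.54 with GC content offsets and -0.97 without WT-GMP replicate 3. The interaction was 3.03 (SE 0.29, adjusted p = 1.58e-05). The reverse was seen 3.20 kb downstream (chr9:124108826-124109043), where URE-LSK held 1.999, 1.90 and 2.39 CPM against 0.866, 0.367 and 0.764 CPM in WT-LSK (log2 difference 1.61, SE 0.41, adjusted p = 0.00318). In GMP the log2 difference of that region was 0.24 (SE 0.44, adjusted p = 0.648), and 1.11 with loess offsets (adjusted p = 0.0477).

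**Figure D2:**
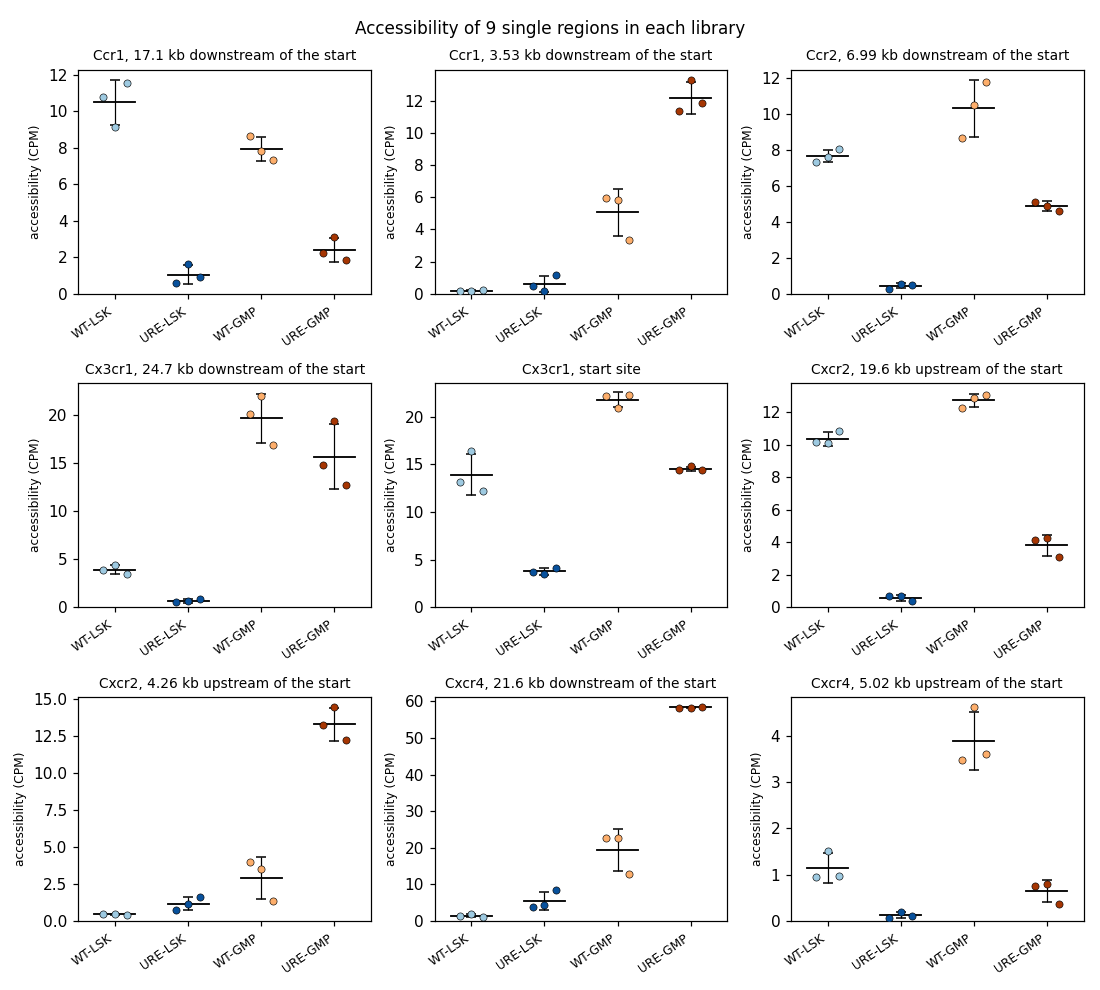
Accessibility in CPM (vertical axes, linear, from 0) of 9 named regions in each of the 12 libraries. Points are libraries, horizontal bars are means of 3 and error bars are SD. The regions 6.99 kb downstream of Ccr2 and 19.6 kb upstream of Cxcr2 were lowest in URE-LSK, and those 4.26 kb upstream of Cxcr2 and 21.6 kb downstream of Cxcr4 were highest in URE-GMP.

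Cx3cr1 gave different answers for its 2 gene bodies. Over the RefSeq body and flanks, the sum was 53.8, 61.3 and 45.8 CPM in WT-LSK, against 20.4, 19.0 and 26.6 CPM in URE-LSK. It was 117, 119 and 106 CPM in WT-GMP, against 101, 106 and 95.4 CPM in URE-GMP. The loss in LSK was a log2 difference of -1.28 (SE 0.12, adjusted p = 3.41e-07), against -0.18 (SE 0.11, adjusted p = 0.165) in GMP, with an interaction of 1.10 (SE 0.16, adjusted p = 1.79e-04). The GMP value was called with loess offsets (-0.31, adjusted p = 0.0377), GC content offsets (-0.31, adjusted p = 0.0393) and library size only (-0.30, adjusted p = 0.0425). Over the long GENCODE body, which takes in 5 other protein-coding genes, the log2 difference was 0.11 (SE 0.06, adjusted p = 0.130, and 0.0472 with the replicate block) in LSK and 0.34 (SE 0.06, adjusted p = 1.37e-04) in GMP. Its interaction of 0.24 was called with the replicate block (adjusted p = 0.0123), with RLE size factors and with loess or GC content offsets, but not with TMM scaling of all 12 libraries without the block. Of the 30 regions outside the RefSeq window, 5 were higher in URE-LSK (16.7%, against a background of 13.6%) and 3 lower (10%, against 23.9%). Of the 8 inside it, 0 were higher and 5 lower (62.5%).

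At the Cx3cr1 start (chr9:120068114-120068606, RefSeq start within the region), WT-LSK held 13.1, 16.4 and 12.3 CPM and URE-LSK 3.69, 3.46 and 4.14 CPM. WT-GMP held 22.2, 20.9 and 22.2 CPM and URE-GMP 14.4, 14.8 and 14.4 CPM. URE was below WT in every library of both cell types. URE differed from WT by a log2 difference of -1.88 (SE 0.14, adjusted p = 2.44e-08) in LSK and -0.58 (SE 0.13, adjusted p = 0.00101, inside the fold threshold) in GMP, with an interaction of 1.30 (SE 0.19, adjusted p = 3.10e-04).

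Intron regions of Cx3cr1 varied. The region with the PU.1 motif printed above, 9.15 kb downstream (chr9:120058622-120059134), held 1.78, 2.12 and 2.11 CPM in WT-LSK, against 0.428, 0.307 and 0.427 CPM in URE-LSK. In GMP it held 15.4, 13.3 and 7.88 CPM in WT and 8.70, 10.4 and 7.51 CPM in URE. The groups were apart in LSK (log2 difference -2.35, SE 0.29, adjusted p = 4.89e-06) and overlapped in GMP (-0.45, SE 0.22, adjusted p = 0.0843). Here the interaction came to 1.90 (SE 0.37, adjusted p = 0.00254). A wide region 12.8 kb downstream differed by -0.98 in LSK, inside the fold threshold, and by 0.24 in GMP (adjusted p = 0.133, interaction 1.22, SE 0.19, adjusted p = 6.01e-04). The region 24.7 kb downstream (chr9:120043064-120043609) held 3.83, 4.41 and 3.50 CPM in WT-LSK, against 0.524, 0.642 and 0.897 CPM in URE-LSK, but 20.04, 21.9 and 16.9 CPM in WT-GMP, against 14.8, 19.3 and 12.7 CPM in URE-GMP. Its log2 difference was -2.48 (SE 0.23, adjusted p = 2.37e-07) in LSK and -0.33 (SE 0.18, adjusted p = 0.133) in GMP, with an interaction of 2.16 (SE 0.30, adjusted p = 2.09e-04).

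Upstream of Cx3cr1 the 2 intergenic regions differed. The region 3.31 kb upstream was at -0.01 (adjusted p = 0.959) in LSK and 0.66 (adjusted p = 0.00490) in GMP on the log2 scale, inside the fold threshold. The region 13.3 kb upstream (chr9:120083184-120083552), whose nearest start is that of Ccr8, held 3.52, 2.90 and 2.05 CPM in WT-LSK and 0.286, 0.251 and 0.192 CPM in URE-LSK. In GMP the values were 4.43, 6.44 and 6.68 CPM in WT and 1.14, 1.09 and 0.921 CPM in URE. No URE library reached a WT library of its cell type. On the log2 scale the difference was -3.52 (SE 0.31, adjusted p = 1.11e-07) in LSK and -2.48 (SE 0.25, adjusted p = 7.50e-07) in GMP.

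The far part of the long Cx3cr1 body held changes in both directions. A region on a coding exon (chr9:119940266-119940646) lay within both the Ttc21a body and the long Cx3cr1 body. Its nearest start was that of Ttc21a. The region held 0.551, 0.530 and 0.503 CPM in WT-LSK, against 6.40, 8.07 and 5.34 CPM in URE-LSK (log2 difference 3.64, SE 0.24, adjusted p = 1.16e-08). In GMP it held 0.502, 0.462 and 0.622 CPM in WT and 2.95, 4.01 and 3.66 CPM in URE (log2 difference 2.73, SE 0.24, adjusted p = 2.60e-07). A Ttc21a intron region (chr9:119948835-119949151) was lower in URE, by log2 differences of -4.40 (SE 0.43, adjusted p = 3.42e-07) in LSK and -2.51 (SE 0.34, adjusted p = 1.19e-05) in GMP. An intron region that overlaps no gene but Cx3cr1 (chr9:119993431-119993768) was higher, by 1.44 (SE 0.47, adjusted p = 0.0155) and 2.61 (SE 0.33, adjusted p = 6.50e-06). The most accessible region of the 38, at the Csrnp1 promoter, differed by 0.39 (SE 0.09, adjusted p = 0.00147) in LSK and 0.62 (SE 0.09, adjusted p = 2.37e-05) in GMP, inside the fold threshold. An intron region of Ttc21a (chr9:119955180-119955623) was the only one of the 15 whose interaction was negative (-1.14, SE 0.35, adjusted p = 0.0346), with log2 differences of 3.62 in LSK and 2.48 in GMP.

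**Figure D3:**
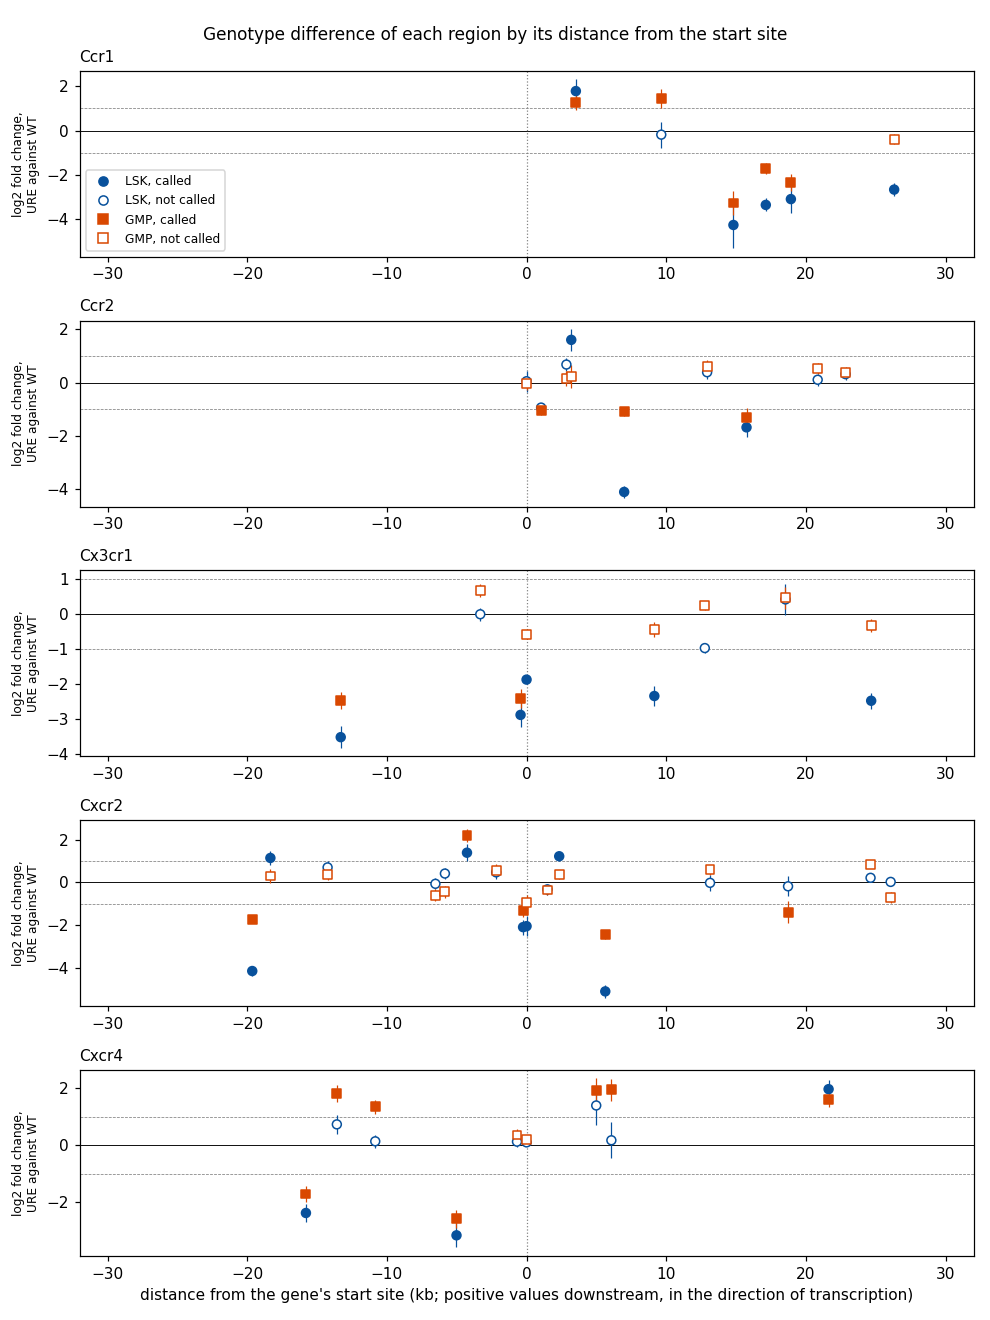
Log2 fold change of URE against WT (vertical axes, points with SE) for each region of the 5 genes by its distance from the start site in kb, with Cx3cr1 shown for its RefSeq body and flanks. Circles are LSK and squares GMP, filled where called, and dashed lines mark log2 fold changes of -1 and 1. Lower regions near Ccr1 lay 14.8 to 26.3 kb downstream, and all called regions of Cx3cr1 in this view were lower.

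Cxcr2 held losses and gains side by side. Its summed window was 45.5, 47.1 and 55.1 CPM in WT-LSK and 41.7, 35.2 and 52.8 CPM in URE-LSK. The GMP libraries held 81.6, 76.0 and 81.9 CPM in WT and 81.4, 82.0 and 88.6 CPM in URE. The genotypes overlapped in both cell types, with log2 differences of -0.19 (SE 0.11, adjusted p = 0.153) in LSK and 0.07 (SE 0.11, adjusted p = 0.571) in GMP. The LSK value was -0.36 (adjusted p = 0.00547) without URE-LSK replicate 3 and -0.19 (adjusted p = 0.0475) with the replicate block. The step from LSK to GMP was 0.69 in WT (SE 0.11, adjusted p = 7.63e-05) and 0.96 in URE (SE 0.11, adjusted p = 1.36e-06).

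A deep loss in LSK was found at the 3' part of Cxcr2. In the region 5.64 kb downstream of the start (chr1:74159627-74159978), which overlaps untranslated sequence and holds a PU.1 motif, WT-LSK had 4.51, 6.04 and 4.81 CPM and URE-LSK 0.0952, 0.112 and 0.214 CPM. WT-GMP had 8.24, 8.06 and 8.60 CPM and URE-GMP 1.70, 1.67 and 1.16 CPM. The log2 difference was -5.12 (SE 0.29, adjusted p = 3.72e-09) in LSK and -2.45 (SE 0.22, adjusted p = 2.44e-07) in GMP, with an interaction of 2.67 (SE 0.38, adjusted p = 2.61e-04).

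A similar loss lay 19.6 kb upstream of Cxcr2, on a coding exon of Rufy4 (chr1:74133921-74134349). The values were 10.2, 10.1 and 10.9 CPM in WT-LSK and 0.666, 0.698 and 0.385 CPM in URE-LSK. Values in GMP were 12.3, 12.8 and 13.1 CPM in WT and 4.11, 4.25 and 3.08 CPM in URE. WT libraries of both cell types were close to each other, and URE-LSK was lowest. URE differed from WT by a log2 difference of -4.16 (SE 0.22, adjusted p = 2.47e-09) in LSK and -1.74 (SE 0.19, adjusted p = 1.38e-06) in GMP, with an interaction of 2.43 (SE 0.29, adjusted p = 6.80e-05).

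At the start of Cxcr2 accessibility was low in all groups and lower in URE. The region 249 bp upstream (chr1:74153506-74153740) held 1.02, 1.75 and 1.99 CPM in WT-LSK and 0.262, 0.586 and 0.278 CPM in URE-LSK. GMP libraries had 2.34, 2.06 and 2.12 CPM in WT and 0.775, 0.989 and 0.800 CPM in URE. The genotypes did not overlap, and the log2 differences were -2.10 (SE 0.35, adjusted p = 9.23e-05) in LSK and -1.33 (SE 0.31, adjusted p = 0.00165, and -0.68 with loess offsets, adjusted p = 0.0629) in GMP.

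Gains at Cxcr2 lay on both sides of the start. The region 4.26 kb upstream (chr1:74149108-74149724), with the CEBP motif printed above, held 0.472, 0.449 and 0.422 CPM in WT-LSK and 0.738, 1.12 and 1.65 CPM in URE-LSK. In GMP the values were 3.97, 3.50 and 1.31 CPM in WT and 13.2, 14.5 and 12.2 CPM in URE. URE-GMP stood above every other library. On the log2 scale the difference was 2.20 (SE 0.32, adjusted p = 2.18e-05) in GMP and 1.39 (SE 0.41, adjusted p = 0.00857) in LSK, the latter 1.04 (adjusted p = 0.0586) without URE-LSK replicate 3. The intron region 2.34 kb downstream (chr1:74156329-74156750) held 2.57, 3.14 and 4.16 CPM in WT-LSK, against 7.40, 5.72 and 10.02 CPM in URE-LSK. Its log2 difference was 1.22 (SE 0.22, adjusted p = 1.69e-04, and 0.99 without URE-LSK replicate 3) in LSK and 0.37 (SE 0.21, adjusted p = 0.131) in GMP. A further gain in LSK lay 18.3 kb upstream in a Rufy4 intron, with 3.75, 3.39 and 3.82 CPM in WT-LSK and 7.07, 5.05 and 12.1 CPM in URE-LSK (log2 difference 1.14, SE 0.31, adjusted p = 0.00571).

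The most accessible region of the Cxcr2 window, 2.18 kb upstream (chr1:74151133-74151813), was not called for genotype. It held 1.65, 2.04 and 2.74 CPM in WT-LSK and 1.74, 2.21 and 4.96 CPM in URE-LSK. The GMP libraries held 12.1, 10.9 and 14.1 CPM in WT and 17.2, 16.3 and 21.9 CPM in URE. The log2 difference was 0.47 (SE 0.31, adjusted p = 0.215, and -0.14 without URE-LSK replicate 3) in LSK and 0.57 (SE 0.28, adjusted p = 0.0868) in GMP. Its step from LSK to GMP in WT was 2.52 (SE 0.31, adjusted p = 6.95e-06).

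Per length of open chromatin, Cxcr4 had 27.6 CPM per kb of region in WT-GMP and 38.1 in URE-GMP, above its LSK values of 19.6 (WT) and 20.7 (URE). In GMP the other genes lay between 12.3 and 27.2 CPM per kb, except Cx3cr1 with its RefSeq body at 29.1 in WT-GMP. The Cxcr4 window held 115, 113 and 90.5 CPM in WT-LSK and 121, 105 and 110 CPM in URE-LSK. Values in GMP were 181, 138 and 129 CPM in WT and 209, 209 and 201 CPM in URE. The LSK genotypes overlapped (log2 difference 0.08, SE 0.11, adjusted p = 0.533), and the GMP genotypes did not (0.47, SE 0.11, adjusted p = 0.00118). The interaction was 0.39 (SE 0.15, adjusted p = 0.0859). This call depended on the model, since with the replicate block it was 0.40 (adjusted p = 0.0131), with DESeq2 0.41 (adjusted p = 0.0338) and with loess offsets 0.40 (adjusted p = 0.0430).

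The promoter of Cxcr4 was not called in either cell type. The region that spans the Cxcr4 start (chr1:128590683-128592794, 2112 bp) held 90.5, 86.8 and 71.0 CPM in WT-LSK and 97.8, 83.1 and 85.1 CPM in URE-LSK. GMP libraries had 122, 82.1 and 87.2 CPM in WT and 113, 112 and 110 CPM in URE. Genotypes overlapped in both cell types, with log2 differences of 0.10 (SE 0.12, adjusted p = 0.502) in LSK and 0.21 (SE 0.12, adjusted p = 0.161) in GMP. These signs turned with loess offsets, to -0.23 and -0.06.

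Around this promoter, 5 of the 9 regions were called higher in URE-GMP (55.6%, against a background of 15.6%) and 2 lower (22.2%, against 24.1%). The region 21.6 kb downstream (chr1:128569886-128570665) held 1.44, 1.84 and 1.07 CPM in WT-LSK and 3.81, 4.27 and 8.35 CPM in URE-LSK. In GMP the values were 22.6, 22.6 and 12.7 CPM in WT and 58.3, 58.2 and 58.4 CPM in URE. It was second to the promoter among the regions of Cxcr4 in GMP. URE differed from WT by a log2 difference of 1.98 (SE 0.31, adjusted p = 4.60e-05) in LSK and 1.60 (SE 0.25, adjusted p = 4.52e-05) in GMP, and the step from LSK to GMP was 3.78 in WT (SE 0.30, adjusted p = 1.69e-07).

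The other regions higher in URE-GMP lay 4.99 and 6.07 kb downstream and 10.8 and 13.6 kb upstream, with log2 differences of 1.94, 1.95, 1.35 and 1.83. The region 10.8 kb upstream (chr1:128603124-128603358) was less accessible in WT-GMP, at 0.418, 0.734 and 0.807 CPM, than in WT-LSK, at 3.04, 2.94 and 2.80 CPM. URE-GMP held 1.49, 1.68 and 2.04 CPM and URE-LSK 3.19, 3.77 and 2.71 CPM. The genotype difference was 0.14 (SE 0.23, adjusted p = 0.618) in LSK and 1.35 (SE 0.26, adjusted p = 2.93e-04) in GMP. The interaction was 1.22 (SE 0.34, adjusted p = 0.0233, and 0.0526 without URE-LSK replicate 1).

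The losses at Cxcr4 lay 5.02 and 15.8 kb upstream. In the region 5.02 kb upstream (chr1:128597306-128597602), with the PU.1 motif printed above, WT-LSK held 0.945, 1.51 and 0.965 CPM and URE-LSK 0.0714, 0.195 and 0.107 CPM. WT-GMP held 3.47, 4.62 and 3.60 CPM and URE-GMP 0.753, 0.798 and 0.363 CPM. No URE library reached a WT library of its cell type. On the log2 scale the difference was -3.17 (SE 0.43, adjusted p = 1.05e-05) in LSK and -2.59 (SE 0.32, adjusted p = 5.08e-06) in GMP. The region 15.8 kb upstream (chr1:128608086-128608536) differed by -2.39 in LSK and -1.72 in GMP on the log2 scale (adjusted p = 1.19e-05 and 1.13e-04).

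**Figure D4:**
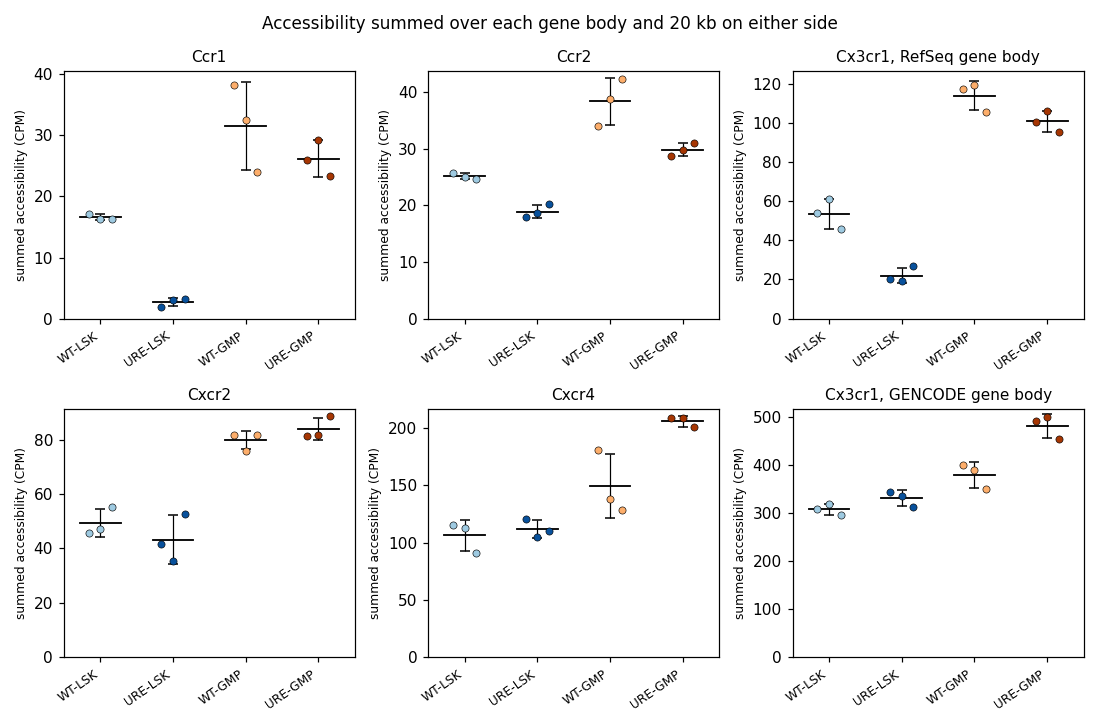
Summed accessibility in CPM (vertical axes, from 0) over each gene body and 20 kb on either side, by library. Points are libraries, bars are means of 3 and error bars SD. Ccr1 was between 1.93 and 3.23 CPM in URE-LSK and at least 16.2 CPM in WT-LSK, whereas Cxcr4 was between 201 and 209 CPM in URE-GMP.

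The rest of the chemokine system was read from lists of receptors, ligands and signalling genes. Of 19 other chemokine receptor windows, 7 were higher and 4 lower in URE-LSK, and 5 higher and 6 lower in URE-GMP, near or under the 61.3% and 62.6% of all windows called in either direction. Their median log2 differences were 0.15 and -0.0020, beside 0.17 and 0.15 for all windows. Ccr6, the receptor of CCL20, was lower in both (-1.35, SE 0.14, adjusted p = 1.57e-06, and -1.05, SE 0.14, adjusted p = 7.51e-06). Of 17 ligand windows, 2 were higher and 12 lower in URE-LSK and 0 higher and 13 lower in URE-GMP, with medians of -0.50 and -0.38. Neighbouring ligand genes share regions, so these counts are not of separate loci. Among the ligands of the members, Ccl2 differed by -1.07 (adjusted p = 1.11e-04) and -1.28 (adjusted p = 9.87e-06) in LSK and GMP, and Cx3cl1 by -0.38 (adjusted p = 0.00200) and -0.55 (adjusted p = 8.21e-05). Cxcl12 differed in LSK by 0.20 (adjusted p = 0.139) and by -0.35 in GMP (adjusted p = 0.0145). Of 15 signalling and desensitisation genes, 6 were higher and 2 lower in LSK and 4 and 2 in GMP, a smaller share than of all windows. Grk3, a kinase that desensitises these receptors, was lower in both (-0.77, SE 0.07, adjusted p = 6.62e-07, and -1.12, SE 0.08, adjusted p = 7.29e-09).

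Marker lists of the sorted and of other cell types were read beside these results. Over all windows, 61.3% were called for genotype in LSK and 62.6% in GMP, in either direction. The counts of windows below are to be read beside these shares. The 5 GMP markers with a region summed to 1260 to 1518 CPM in WT-GMP and 1775 to 1836 CPM in URE-GMP. Of these windows, 3 were higher and 1 lower in URE-GMP. The 6 stem cell markers summed to 702 to 823 CPM in WT-GMP and 596 to 638.5 CPM in URE-GMP, with 0 windows higher and 1 lower. Both sums overlapped between the genotypes in LSK. Over 6 mature neutrophil markers the summed accessibility was 289 to 339 CPM in WT-GMP, against 389 to 420 CPM in URE-GMP, where 4 windows were higher and 2 lower. In LSK these markers summed to 239 to 247 CPM in WT and 222 to 230 CPM in URE. Over 6 monocyte markers the sum was 296 to 318 CPM in WT-LSK, against 269 to 278 CPM in URE-LSK, with 4 windows lower and 1 higher, and in GMP 402 to 457 CPM in WT and 390 to 418 CPM in URE, with 2 windows higher and 2 lower. Over 6 B cell markers it was 494 to 515 CPM in WT-LSK, against 623 to 679 CPM in URE-LSK, and in GMP 527 to 571 CPM and 659 to 700 CPM. For T and NK cell markers, 5 with a region, it was 283 to 301 CPM in WT-LSK, 358 to 381 CPM in URE-LSK, 258 to 269 CPM in WT-GMP and 359 to 378 CPM in URE-GMP. Basophil and mast cell markers, also 5, held 153 to 165 CPM in WT-LSK, 160 to 205 CPM in URE-LSK, 284 to 328 CPM in WT-GMP and 400.3 to 415 CPM in URE-GMP. The 5 dendritic cell markers summed to 577 to 619 CPM in WT-GMP and 492 to 507 CPM in URE-GMP, and overlapped in LSK. Erythroid and megakaryocyte markers held 527 to 565 CPM in WT-LSK and 604 to 666 CPM in URE-LSK, and overlapped in GMP. No window of these lists was at 0. The part of these cell types in the changes at the 5 genes was not tested.

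Genes whose window followed a member most closely over the 12 libraries were listed by Pearson's r of log2 CPM, among windows without a shared region and with a mean of at least 5 CPM. They were Hdc and Il1b for Ccr1 (r = 0.991 and 0.991), Ndrg1 and Hormad2 for Ccr2 (0.976 and 0.975) and Pde9a and Gm826 for Cxcr2 (0.983 and 0.980). For Cxcr4 they were Scp2 and Sec61b (0.991 and 0.984), and for Cx3cr1 Rab20 and 3110082I17Rik with the GENCODE body (0.994 and 0.992) or Cd6 and Parvg with the RefSeq body (0.993 and 0.992). The 12 libraries form 4 clusters, so these values mostly describe the order of the 4 groups.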

How the data were processed

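Bone marrow ATAC-seq libraries of 4 groups (WT-LSK, URE-LSK, WT-GMP, URE-GMP, 3 each) were grouped by GEO's labels. The authors deposited raw counts, one whole number for each of 121336 regions in each library and not normalized. According to the study's methods, bowtie2 alignments to GRCm38 were cleared of duplicates and of chromosomes outside the primary assembly, and Genrich peaks of each group were then merged. The submitters' processing notes also name cutadapt, bedtools and featureCounts. Whether reads or fragments were counted is not given in the sources used here. Starts were taken as counted from 0 and are given counted from 1. All 12 columns were used.

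Member regions were found with GENCODE M21 and GRCm38, and Cx3cr1 also with its RefSeq body. The members and gene lists were chosen with earlier results of these data known. Counts were tested in R 4.3.3 with edgeR 4.0.16 (TMM, which scales libraries, quasi-likelihood, all 12 libraries, two-sided, Benjamini-Hochberg over all 121336 regions or all 18435 windows). CPM were computed from the deposited counts with TMM-scaled totals. filterByExpr removed no region. The biological coefficient of variation was 0.185 for regions and 0.074 for windows. p-values measure the spread between libraries. Named regions per gene were the one with most counts within 500 bp of a start, the one with the highest mean CPM, the called region with the smallest p per direction in each genotype comparison, and the one with the smallest interaction p. Other regions were named after their values were seen. Where 3 libraries held at most 3 counts each, the ratio of summed counts is given with its interval.

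Whether equal replicate numbers pair libraries was checked through the correlation of deviations from the group mean. The correlations were 0.223, 0.257 and 0.264 between the WT cell types, 0.112, 0.319 and 0.172 between the URE cell types and 0.117, 0.236 and 0.422 between the GMP genotypes, above the criterion of 0.1. In LSK they were 0.150, 0.063 and -0.109. The criterion was also passed by pairs of different number, at 0.180 (URE-GMP 2 with WT-GMP 1) and 0.138 (URE-LSK 2 with WT-LSK 3). The other pairs of different number lay below it. Passing the criterion therefore does not by itself show pairing. The main fit held no block, and the replicate block was an alternative. The labels do not say what a number shares. Alternatives were RLE size factors, library size only, loess and GC content offsets, DESeq2 1.42.0, filters, other thresholds, flanks of 5 kb, the replicate block and leaving out each library. Fits were tested on simulated data. The result for a further region is not reported here.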

Additional observations from a re-analysis of the deposited data

Results flagged for a closer look

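The interaction test compared the genotype difference in GMP with that in LSK. The difference was more positive in GMP than in LSK at 14 of the 78 regions. At Ccr1 the interaction was 2.28 in the region 26.3 kb downstream of the start and 1.64 in that 17.1 kb downstream. At Ccr2 it was 3.03 in the region 6.99 kb downstream. At Cxcr2 it was 2.43 in the region 19.6 kb upstream and 2.67 in that 5.64 kb downstream, and at Cxcr4 1.22 (unrounded 1.2150) in the region 10.8 kb upstream.

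Within the RefSeq body and flanks of Cx3cr1, 4 regions met the same test, with interactions of 2.16, 1.22 (unrounded 1.2170), 1.90 and 1.30 at 24.7, 12.8 and 9.15 kb downstream and at the start. In the rest of the GENCODE body and its flank, 5 more met it, at 2.78 (in a Wdr48 intron), 1.23, 1.89, 1.45 and -1.14. Summed windows gave 2.33 for Ccr1 and 1.10 for the RefSeq window of Cx3cr1. The fit across all regions gave these calls at an adjusted p under 0.05 (edgeR).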

How the results depend on the processing

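With flanks of 5 kb, 20 member regions were called in LSK, 18 in GMP, 23 in the WT step and 31 in the URE step, since fewer regions were then counted, and 1 window in LSK. In GMP, 19 regions were called with a mean of at least 2 CPM and 52 with no fold change threshold, and glmTreat called 20 in the WT step and 6 for the interaction. The shares of all regions called were 18.1% and 60.9% in GMP, and 23.4% and 3.05% with glmTreat. GC content offsets left 1 window called in LSK and the replicate block gave 4. Of all 18435 windows, 7606 were called in LSK with GC content offsets and 12094 with the block. For the interaction, 2 windows were called with RLE size factors, library size only, GC content offsets or the RefSeq body of Cx3cr1, and 3 with loess offsets, DESeq2, the replicate block or the block with GC content offsets. Over all windows the interaction was called for 3306 in the main fit and for 3425 to 4514 with these scalings and models. Region counts with the replicate block were 32 in LSK, 30 in GMP, 35 and 48 in the steps and 16 for the interaction. The shares of all regions called with the block were, in the same order, 37.9%, 39.9%, 37.9%, 49.2% and 15.5%. Without single libraries, regions called ranged from 26 to 33 in LSK, 27 to 32 in GMP, 31 to 36 and 46 to 49 in the steps and 12 to 16 for the interaction, and windows from 2 to 3, 3 to 4, 5 and 5, and 1 to 3. Over all regions the shares then ranged from 35.4% to 38.5% in LSK, 38.6% to 40.4% in GMP and 10.3% to 15.1% for the interaction. The windows called for the interaction rose to 3 without WT-GMP replicate 1, WT-GMP replicate 3 or WT-LSK replicate 3.

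Some log2 differences changed sign, and the cause was not tested. For the Ccr1 window these were 0.93 in LSK and 1.30 in GMP with flanks of 5 kb, and 0.0202 and 0.0267 in GMP with GC content offsets without and with the replicate block. The region 26.3 kb downstream of Ccr1 was at 0.17 and 0.19 in GMP under the latter 2. The Ccr2 start was at -0.0614 (library size only) and -0.0267 (only the groups compared) in LSK and at 0.0123 (RLE), 0.0140 (DESeq2), 0.27 (loess), 0.64 (GC) and 0.64 (block with GC) in GMP. The Cxcr4 start was at -0.0203 (library size only) and -0.23 (loess) in LSK and at -0.0625 (loess) in GMP. In LSK the Cx3cr1 window was at -0.0132 (library size only), -0.0919 (loess), -0.0460 (GC) and -0.0459 (block with GC), and the Cxcr4 window at -0.0410, -0.0945, -0.0078 and -0.0018. In GMP the Cxcr2 window was at -0.0453 (library size only) and -0.0474 (loess). The Ccr2 window interaction was at -0.0070 with flanks of 5 kb.

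Without single libraries, 7 differences changed sign. They ranged from -0.4355 to 0.2799 (LSK) and -0.1307 to 0.0276 (GMP) at the Ccr2 start, from -0.1461 to 0.5452 (GMP) 3.20 kb downstream of it, from -0.1382 to 0.7405 (LSK) 2.18 kb upstream of Cxcr2 and from -0.0610 to 0.1450 (LSK) at the Cxcr4 start. The Ccr2 window interaction ranged from -0.0079 to 0.1918 and the Cxcr4 window in LSK from -0.0894 to 0.1209.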
